A study of Mus musculus with 6 samples.

Results

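A set of 10 genes of the canonical Wnt pathway was followed in mouse lung cells after C1q, the complement protein that recognises bound antibody, had been put into the airways. They were taken by symbol from the deposited count table: the co-receptor genes Lrp5 and Lrp6, the beta-catenin gene Ctnnb1, the transcription factor genes Tcf7, Lef1 and Tcf7l2, the secreted antagonist gene Wif1, and the target genes Axin2, Nkd1 and Ccnd1. All 10 of 10 were found among 26890 genes, and 9 passed the filter on low counts that 13473 genes passed. Wif1 did not pass it and is given by its counts.

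The study held 6 bulk RNA libraries of digested lung. In the C1q group were 3 libraries from C57BL/6 wild-type mice given C1q through the trachea at 20 µg per mouse, and in the saline group 3 from C57BL/6 wild-type mice labelled as saline-treated, all at day 3. No other protein was instilled as a control, so effects of C1q and of protein as such cannot be told apart. The protocol text of every sample describes the C1q instillation, and only the treatment tag names saline. The labels give neither age nor sex and do not say that each library is a separate animal, so p-values measure the spread between these libraries, which may be technical. Total counts were 2227619 to 3650793 in the C1q libraries and 2577429 to 2991562 in the saline libraries. A single count was worth 0.277 to 0.451 CPM (counts scaled to library size) in the C1q libraries and 0.321 to 0.405 CPM in the saline libraries. Markers of alveolar type 2 cells, alveolar type 1 cells, airway epithelium and endothelium were counted in every library, with alveolar type 2 markers summing to 28348 to 30760 CPM in C1q and 20789 to 40128 CPM in saline libraries.

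Wnt proteins are secreted ligands that join a Frizzled receptor to the co-receptors LRP5 or LRP6. Without a ligand, a cytosolic complex built on axin, APC and the kinase GSK3 marks beta-catenin for destruction. With a ligand that complex is held at the membrane, beta-catenin builds up, enters the nucleus and binds the TCF/LEF factors, which switch on targets such as Axin2. In the lung the pathway is known for airway and alveolar development and for the upkeep of alveolar type 2 progenitors, and in T cells TCF1, the product of Tcf7, and LEF1 are known as factors of development and of the naive and memory states.

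Tcf7 and Lef1 had lower levels in all 3 C1q libraries than in any saline library, and Ctnnb1 had higher ones, while the other 6 tested genes overlapped between the groups. The groups failed to overlap in the same way for 14.1% of all genes tested. None of these differences passed the test over all genes. Tcf7 averaged 17.3 ± 3.23 CPM in C1q and 28.3 ± 0.995 CPM in saline libraries, and Ctnnb1 648 ± 48.4 CPM in C1q and 547 ± 19.0 CPM in saline libraries (SD, n = 3 each). Axin2, a direct target, averaged 12.6 ± 2.46 CPM in C1q and 13.2 ± 2.19 CPM in saline libraries.

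Of the 9 tested genes, 0 passed edgeR's quasi-likelihood test at an adjusted p under 0.05, a threshold that 0.0297% of all genes tested passed. The smallest adjusted p among them was 0.484, for Tcf7. At an unadjusted p under 0.05 there was 1 of 9, again Tcf7 in the lower direction, against 8.16% of all genes tested (4.22% higher and 3.94% lower), and DESeq2 and limma-voom likewise had 0 past the adjusted threshold and Tcf7 alone at the unadjusted one. The groups did not overlap for 3 of 9, with 1 above and 2 below, against 14.1% of all genes tested (8.12% above and 5.96% below). The median log2 fold change of the 9 was -0.082, against -0.012 over all genes tested, and the median size of the change without its sign was 0.14, against 0.20 over all genes tested. These are all fold changes of C1q over saline on the log2 scale.

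**Figure D1:**
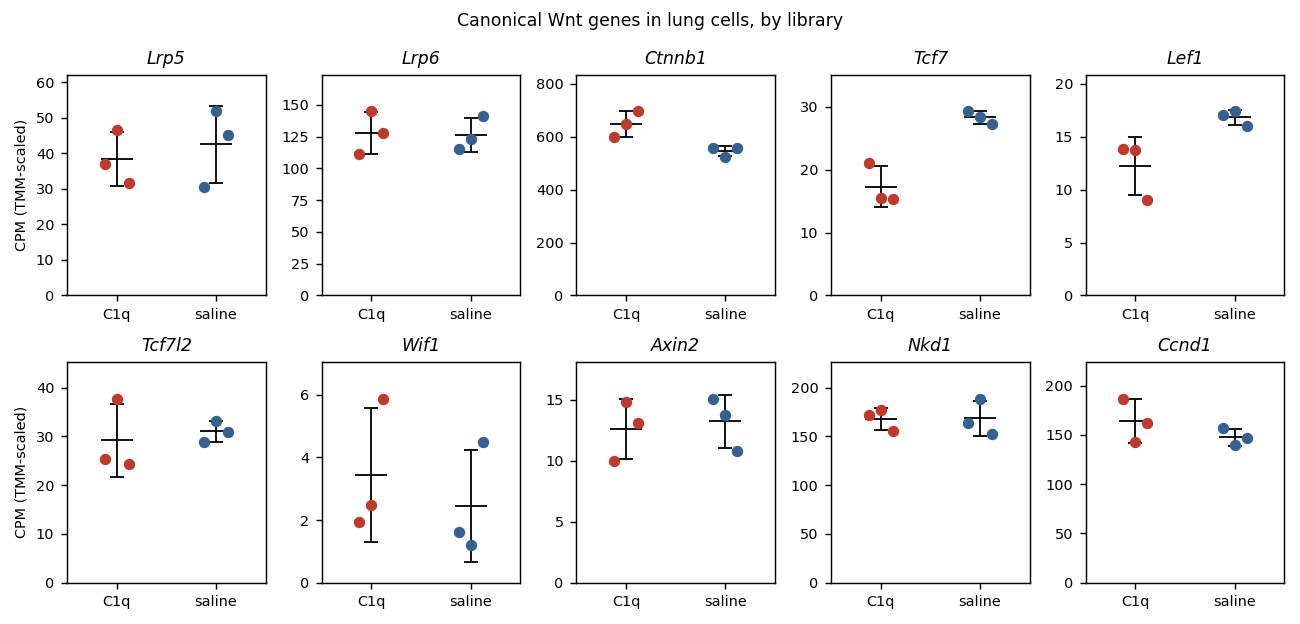
Levels of the 10 genes in each library, in CPM scaled by TMM (y axes start at 0); points are libraries, the horizontal bar is the mean and the whiskers are 1 SD (n = 3 each). For Tcf7 the C1q libraries lie at 15.3 to 21.0 CPM and the saline libraries at 27.3 to 29.3 CPM, and for Nkd1 the groups overlap.

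The co-receptors LRP5 and LRP6 are single-pass receptors that pass the signal from a bound Wnt to axin. Lrp5 (chromosome 19, 3584828 to 3686564 on GRCm38, protein-coding) stood at 37.1, 46.6 and 31.6 CPM in C1q libraries and at 30.5, 51.8 and 45.2 CPM in saline libraries. Its values in the C1q libraries lay inside the saline range. The log2 fold change was -0.14 ± 0.22 (SE), with a 95% interval of -0.63 to 0.35 and an edgeR adjusted p of 0.881. Lrp6 (chromosome 6, 134446476 to 134566965) stood at 111, 145 and 128 CPM in C1q libraries and at 115, 123 and 141 CPM in saline libraries. C1q replicate 1 was the lowest of the 6 and C1q replicate 2 the highest, so the C1q range spanned the saline range. Its log2 fold change was 0.016 ± 0.16, with an interval of -0.33 to 0.37 (edgeR adjusted p = 0.985). The log2 ratio of Lrp5 to Lrp6 counts within a library, which no scaling affects, averaged -1.74 ± 0.23 in C1q and -1.60 ± 0.33 in saline libraries, a difference of -0.14 (two-sided exact permutation p = 0.6, n = 3 each). Its direction turned without saline replicate 2, where the difference was 0.031.

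Beta-catenin has a pair of roles: it carries the Wnt signal to the nucleus, and at adherens junctions it ties cadherins to the actin skeleton through alpha-catenin. Ctnnb1 (chromosome 9, 120929216 to 120960507) stood at 599, 649.7 and 696 CPM in C1q libraries and at 559, 525 and 556 CPM in saline libraries. All 3 C1q libraries lay above all 3 saline libraries. This gave a log2 fold change of 0.25 ± 0.14, a 1.19-fold higher mean with a 95% interval of 0.952 to 1.48-fold, and it did not pass (edgeR adjusted p = 0.648). The summed level of 6 fibroblast markers was also higher in each C1q library, at 1356 to 1556 CPM in C1q and 985 to 1010 CPM in saline libraries. Of these 6 of 6 were positive and none was at 0. The log2 fold changes were 0.99 for Col1a1, 0.86 for Col1a2, 0.67 for Lum, 0.34 for Dcn, 0.24 for Tcf21 and 0.077 for Pdgfra. The collagen genes Col1a1 and Col1a2 thus rose most, and Pdgfra overlapped between the groups. The part of this sum in the Ctnnb1 value was not tested. Of 5 alveolar type 2 markers 4 were positive, with a median log2 fold change of 0.22, while their sums, given above, overlapped between the groups. Of 5 alveolar type 1 markers 2 were positive, with a median of -0.12. Of 4 airway epithelium markers 1 was positive, with a median of -0.13, and the sums of these lists also overlapped. The 6 endothelial markers summed to 2464 to 2967 CPM in C1q and 2848 to 3225 CPM in saline libraries, with 0 of 6 positive. The part of these lists was likewise not tested. Of 7 tested genes for cadherins and catenins of the junction, 2 were positive and 5 negative on the log2 scale, around a median of -0.092, with -0.21 without C1q replicate 2 and -0.035 without saline replicate 3. Cdh1, which encodes the epithelial E-cadherin, stood at 151, 142 and 161 CPM in C1q libraries and at 117, 117 and 123 CPM in saline libraries, a log2 fold change of 0.35 ± 0.14 (edgeR unadjusted p = 0.0283, adjusted p = 0.602).

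The TCF/LEF factors bind DNA through an HMG box and recruit beta-catenin, and TLE co-repressors in its absence. Tcf7 (chromosome 11, 52252371 to 52283014) stood at 21.0, 15.5 and 15.3 CPM in C1q libraries and at 29.3, 28.3 and 27.3 CPM in saline libraries. The saline libraries lay close together, and the highest C1q library was below the lowest of them. In counts these were 76, 44 and 34 in C1q libraries and 91, 70 and 73 in saline libraries. This gave a log2 fold change of -0.70 ± 0.20, a ratio of 0.617 with a 95% interval of 0.455 to 0.837 that takes no account of the number of genes tested. The edgeR unadjusted p was 0.00521, and 1.06% of all genes tested had a smaller one. The adjusted p was 0.484. Leaving out 1 library at a time gave log2 fold changes of -0.87 to -0.62 for Tcf7.

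Lef1 (chromosome 3, 131110471 to 131224356) stood at 13.8, 13.8 and 9.03 CPM in C1q libraries and at 17.0, 17.4 and 16.1 CPM in saline libraries. Again no C1q library reached the saline range, and C1q replicate 3 was the lowest. Lef1 had a log2 fold change of -0.44 ± 0.24, with an interval of -0.97 to 0.083 (edgeR adjusted p = 0.631). Without C1q replicate 3 it was -0.28. Tcf7l2 (chromosome 19, 55741820 to 55933654), the family member best known from epithelium and other non-lymphoid tissue, stood at 25.4, 37.7 and 24.4 CPM in C1q libraries and at 28.9, 33.2 and 31.0 CPM in saline libraries. C1q replicate 2 was the highest of the 6 and the other C1q libraries were the lowest. For Tcf7l2 the log2 fold change was -0.085 ± 0.20, with an interval of -0.54 to 0.37 (edgeR adjusted p = 0.924). It was -0.31 without C1q replicate 2, and 0.013 and 0.026 without C1q replicate 1 and replicate 3.

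Within each library, the log2 ratio of Tcf7 to Tcf7l2 counts was -0.27, -1.27 and -0.66 in C1q libraries and 0.016, -0.23 and -0.18 in saline libraries. The groups did not overlap, the difference of the means was -0.60, and the two-sided exact permutation p was 0.1, the smallest that 3 against 3 libraries allow. Without C1q replicate 2 that difference was -0.34. For Lef1 over Tcf7l2 the difference was -0.37 (exact permutation p = 0.3). Adjusted over the 5 ratios computed, these p-values were 0.25 for Tcf7 and 0.375 for Lef1.

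Because Tcf7 and Lef1 are strongly used in T cells, a list of 12 T cell markers was read beside them. In a bulk sample, fewer cells of a type and less RNA per cell cannot be told apart. The 12 markers summed to 161, 121 and 118 CPM in C1q libraries and to 168, 133 and 134 CPM in saline libraries, so the groups overlapped, and none of the 12 was at 0 in any library. Of the 10 that passed the filter on low counts, 8 were negative on the log2 scale, and the median was -0.28. The log2 ratio of Tcf7 counts to this sum was -2.93, -2.94 and -2.92 in C1q libraries and -2.52, -2.22 and -2.29 in saline libraries. It was thus lower in each C1q library, by 0.59 on average between the groups (difference -0.59, exact permutation p = 0.1). For Lef1 the ratio averaged -3.44 ± 0.29 in C1q and -3.08 ± 0.19 in saline libraries, and the groups overlapped (difference -0.35, exact permutation p = 0.2).

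The outcome depended on which T cell markers stood below the line. Cd2, an adhesion receptor, had a log2 fold change of 0.091, while Cd3e, a chain of the T cell receptor complex, had -0.94 ± 0.42 (edgeR unadjusted p = 0.0494, adjusted p = 0.606). The 4 CD3 complex genes Cd3d, Cd3e, Cd3g and Cd247 summed to 36.5, 32.5 and 29.3 CPM in C1q libraries and to 54.3, 35.6 and 37.4 CPM in saline libraries. Against these 4 genes, a choice made after seeing the values, the Tcf7 log2 ratio was -0.79, -1.06 and -0.92 in C1q libraries and -0.89, -0.33 and -0.45 in saline libraries. Saline replicate 1 then lay inside the C1q range, and the difference was -0.37 (exact permutation p = 0.2). The Lef1 difference against the same 4 genes was -0.13 (exact permutation p = 0.5).

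Markers of naive T cells, which are known to use Tcf7 and Lef1, summed to 199, 146 and 159 CPM in C1q libraries and to 186, 138 and 161 CPM in saline libraries. Among them Ccr7, a homing receptor of naive T cells and dendritic cells, had a log2 fold change of 0.11 ± 0.20 and Il7r, the interleukin-7 receptor chain, of -0.12 ± 0.18. B cell markers summed to 173 to 294 CPM in C1q and 213 to 304 CPM in saline libraries, and natural killer cell markers to 66.0 to 153 CPM in C1q and 79.9 to 167 CPM in saline libraries. C1q replicate 1 had the highest T, naive T, B and natural killer cell sums of the C1q libraries, and also the highest Tcf7 level among them. Saline replicate 1 had the highest of each of these sums among the saline libraries, with T cell markers at 168 CPM against 133 and 134 CPM. Its Tcf7 level was 29.3 CPM, against 28.3 and 27.3 CPM in the other saline libraries. The part of lymphocyte number in the Tcf7 and Lef1 values was not tested beyond these ratios.

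**Figure D2:**
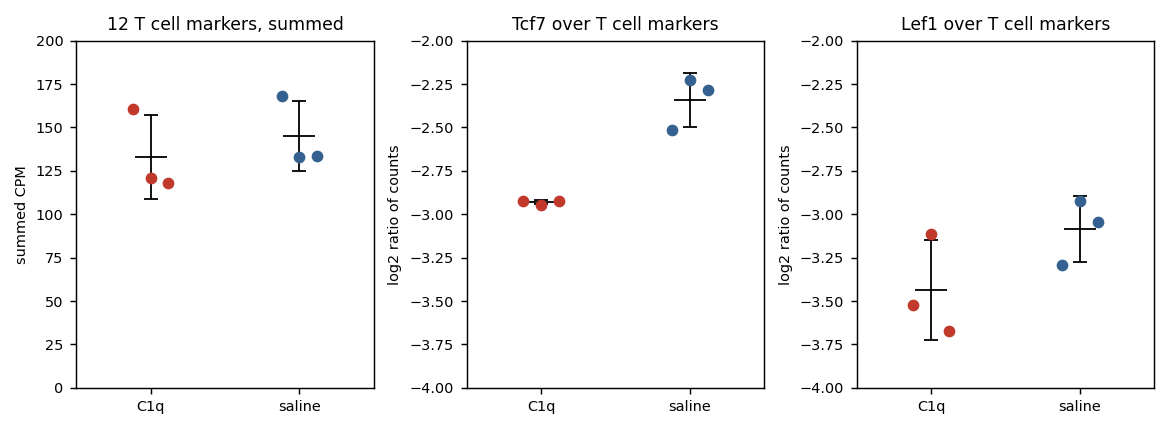
Summed CPM of the 12 T cell markers (left, axis from 0), and the log2 ratio of Tcf7 (middle) and Lef1 (right) counts to the summed counts of those markers; points are libraries, bars are means and whiskers 1 SD (n = 3 each). The Tcf7 ratio is at -2.94 to -2.92 in C1q libraries and at -2.52 to -2.22 in saline libraries, while the other panels overlap.

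RefSeq start sites (GRCm38.p6) were available for 7 of the 10 genes, Lrp5, Lrp6 and Ccnd1 having no entry, as 13 windows of 250 bases before to 50 after the start. The windows are shown because the libraries read 5′ ends of transcripts and because Tcf7 and Lef1, which had the largest differences of the 9, are themselves known as targets of the pathway. The windows were searched on both strands for the TCF/LEF core written CTTTGNN with A or T at each N, which makes 4 forms that were counted once per position and strand. Capitals mark a match, and a window without capitals holds none:
Tcf7, start at the 5′ end of the gene (chr11:52282965-52283264, minus strand): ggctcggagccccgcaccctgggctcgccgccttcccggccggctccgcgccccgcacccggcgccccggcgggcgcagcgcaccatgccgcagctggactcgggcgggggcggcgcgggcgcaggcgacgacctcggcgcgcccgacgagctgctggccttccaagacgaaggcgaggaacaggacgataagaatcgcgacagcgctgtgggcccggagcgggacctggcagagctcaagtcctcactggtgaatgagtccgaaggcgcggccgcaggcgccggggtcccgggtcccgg
Tcf7, internal start (chr11:52282546-52282845, minus strand): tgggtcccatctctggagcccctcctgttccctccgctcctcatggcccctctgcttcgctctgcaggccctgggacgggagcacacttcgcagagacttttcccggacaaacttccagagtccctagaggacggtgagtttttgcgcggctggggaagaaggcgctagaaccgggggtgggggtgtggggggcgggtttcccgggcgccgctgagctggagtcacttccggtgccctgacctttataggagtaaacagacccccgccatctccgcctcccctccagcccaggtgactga
Lef1, first start (chr3:131110047-131110346, plus strand): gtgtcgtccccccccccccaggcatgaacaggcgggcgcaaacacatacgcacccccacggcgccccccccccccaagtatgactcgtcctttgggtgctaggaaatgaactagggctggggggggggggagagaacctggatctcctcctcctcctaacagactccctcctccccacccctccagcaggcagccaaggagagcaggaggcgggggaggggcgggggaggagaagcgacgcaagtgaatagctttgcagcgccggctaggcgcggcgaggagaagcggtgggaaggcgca
Lef1, last start (chr3:131156044-131156343, plus strand): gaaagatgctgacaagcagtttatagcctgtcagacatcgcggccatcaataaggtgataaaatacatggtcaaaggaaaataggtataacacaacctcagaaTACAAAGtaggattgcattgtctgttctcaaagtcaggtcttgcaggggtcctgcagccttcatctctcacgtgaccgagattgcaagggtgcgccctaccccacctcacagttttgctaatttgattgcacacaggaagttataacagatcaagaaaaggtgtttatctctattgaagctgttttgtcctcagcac
Tcf7l2, internal start (chr19:55895071-55895370, plus strand): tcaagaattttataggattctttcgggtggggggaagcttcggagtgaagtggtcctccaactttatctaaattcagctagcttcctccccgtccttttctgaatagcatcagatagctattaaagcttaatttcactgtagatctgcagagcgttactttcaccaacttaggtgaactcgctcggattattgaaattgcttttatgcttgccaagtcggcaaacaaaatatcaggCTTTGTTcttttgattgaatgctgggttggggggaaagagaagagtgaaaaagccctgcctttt
Axin2 (chr11:108920099-108920398, plus strand): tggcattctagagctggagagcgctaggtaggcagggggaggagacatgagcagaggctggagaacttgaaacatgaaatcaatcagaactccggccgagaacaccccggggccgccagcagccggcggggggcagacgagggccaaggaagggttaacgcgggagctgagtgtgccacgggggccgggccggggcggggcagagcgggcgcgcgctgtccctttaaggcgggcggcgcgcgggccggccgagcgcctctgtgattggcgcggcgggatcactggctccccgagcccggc
A match was found in 2 of the 13 windows, 15.4%, against 16.9% of 32851 windows of the same length over all genes. The 7 genes had 13 windows, and the 27025 gene symbols over all genes had 32851, so the 7 had more windows each. That raises a count per gene, in which a gene is counted when any of its windows held a match. On that count the matches fell in 2 of the 7 genes, 28.6%, against 18.9% of the 27025 symbols. They were TACAAAG, the reverse complement of CTTTGTA, beginning 147 bases before the last start of Lef1, and CTTTGTT 14 bases before an internal start of Tcf7l2. No match in a window says only that these letters are not in it. The starts are as annotated, and sequence further upstream was not searched. In the first Tcf7 window an open reading frame begins well before the start and runs to the window's end. That window may thus hold coding sequence of a longer transcript, and whether the windows hold the promoters was not tested. The count table gives 1 value per gene, so which of the starts the reads came from was not analysed here.

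WIF1 is a secreted protein that binds Wnt ligands outside the cell. Wif1 (chromosome 10, 121033960 to 121100650) had 7, 7 and 13 counts in C1q libraries and 5, 3 and 12 counts in saline libraries, or 1.94, 2.47 and 5.87 CPM in C1q libraries and 1.61, 1.21 and 4.48 CPM in saline libraries. The groups overlapped, and in each group replicate 3 was the highest. The sums were 27 counts in C1q libraries, with an exact Poisson 95% interval of 17.8 to 39.3, and 20 counts in saline libraries, with 12.2 to 30.9. These intervals cover counting error only. The means differed by a ratio of 1.41 (exact permutation p = 0.5, n = 3 each, with 0.1 the smallest p possible). Replicates of 1 group ran from 3 to 12 counts, so both counting and the spread between libraries limit this value. Where leaving out 1 library let Wif1 pass the filter, its log2 fold change was 0.13 to 0.74.

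Axin2 encodes a scaffold of the destruction complex that is induced by the pathway and damps it, and it is a widely used readout of canonical Wnt signalling. Axin2 (chromosome 11, 108920349 to 108950783) stood at 9.96, 14.8 and 13.1 CPM in C1q libraries and at 15.1, 13.8 and 10.8 CPM in saline libraries. The ranges nearly coincided. Axin2 had a log2 fold change of -0.082 ± 0.26, with a 95% interval of 0.635 to 1.41-fold, at 29 to 42 counts in C1q and 29 to 47 counts in saline libraries (edgeR adjusted p = 0.946).

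Nkd1 encodes a Dishevelled-binding protein that is likewise induced by Wnt signalling and restrains it. Nkd1 (chromosome 8, 88521354 to 88594884) stood at 172, 177 and 155 CPM in C1q libraries and at 164, 189 and 153 CPM in saline libraries. The C1q libraries lay inside the saline range. Nkd1 had a log2 fold change of -0.00078 ± 0.15, with a 95% interval of 0.796 to 1.25-fold (edgeR adjusted p = 0.999).

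Ccnd1 encodes cyclin D1, which drives entry into the cell cycle and is a target of many pathways besides Wnt. Ccnd1 (chromosome 7, 144929931 to 144939925) stood at 187, 142.5 and 162 CPM in C1q libraries and at 157, 139 and 147 CPM in saline libraries. C1q replicate 1 was the highest, and C1q replicate 2 lay inside the saline range. For Ccnd1 the log2 fold change was 0.15 ± 0.15, with an interval of -0.19 to 0.49 (edgeR adjusted p = 0.792), and without C1q replicate 1 it was 0.045. The antisense neighbour LTO1, whose reads could not be told from those of Ccnd1 where they overlap if strand was not used, had 33 to 59 counts and a log2 fold change of 0.043. Overlapping genes are also annotated for Ctnnb1, at no more than 12 counts in any library, and for Tcf7, Lef1, Tcf7l2, Axin2 and Nkd1. The deposited counts hold no value for the genes that overlap these last. The same limit holds for these 6 genes. For all of them but Axin2 an overlapping gene lies on the same strand, where use of strand would not separate the reads. Of 8 tested cyclins, kinases and inhibitors of the same step of the cell cycle, 3 were positive and 5 negative on the log2 scale, and 0 passed. Among them Rb1, the retinoblastoma protein gene, had -0.38 ± 0.19 (edgeR unadjusted p = 0.0645, adjusted p = 0.609).

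**Figure D3:**
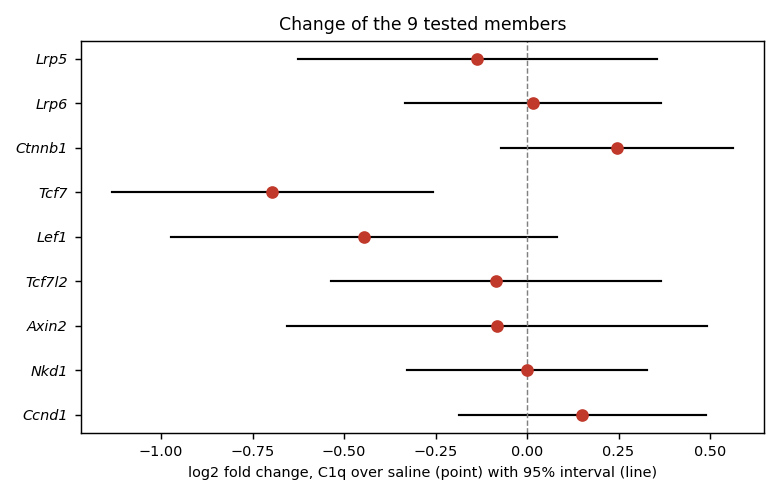
Log2 fold change of C1q over saline for the 9 tested genes (points) with the 95% interval from edgeR (lines), which is not adjusted for the number of genes. The interval of Tcf7, -1.14 to -0.26, is the one that does not reach 0, and that of Nkd1 runs from -0.33 to 0.33.

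The rest of the pathway was read from 11 lists of 116 other genes. Of these 85 were tested and 0 passed over all genes in either direction, with adjusted p of at least 0.410 by edgeR, while 5 had an unadjusted p under 0.05, against 8.16% of all genes tested. DESeq2 and limma-voom also called 0 of them, and edgeR with no filter on low counts called 2, Sfrp1 and Myc, both higher. There were 40 positive and 45 negative log2 fold changes, with a median of -0.042. Of the 85 genes 9 had all C1q libraries above and 9 all C1q libraries below the saline libraries, against 8.12% above and 5.96% below over all genes tested.

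Upstream of the receptors, the 10 tested Wnt ligand genes had 4 positive and 6 negative log2 fold changes, from -0.70 to 0.58 with a median of -0.33. The ligands' median was -0.20 without saline replicate 2. All 3 C1q libraries lay below the saline libraries for 3 of the 10, which is few genes to set against the 5.96% of all genes tested. Wnt3a, a ligand that activates the beta-catenin branch, had 8.85, 8.82 and 8.58 CPM in C1q libraries and 11.6, 11.7 and 12.7 CPM in saline libraries, with a log2 fold change of -0.45 ± 0.25 (edgeR unadjusted p = 0.0971, adjusted p = 0.634). Wls, which carries Wnt proteins to the cell surface, had 0.18 ± 0.15, and 0.089 without C1q replicate 3. Of 6 tested secreted antagonists 5 were positive, with a median of 0.39, and with no filter on low counts the median of the list was 0.15. Sfrp1, which binds Wnt ligands outside the cell, had 39.0, 14.8 and 45.6 CPM in C1q libraries and 15.4, 16.2 and 16.8 CPM in saline libraries. In C1q replicate 2 it was lower than in any other library, and in the other C1q libraries it was far above every saline value. Sfrp1 had a log2 fold change of 1.03 ± 0.35 (edgeR unadjusted p = 0.0127, adjusted p = 0.540), 1.39 without C1q replicate 2 (adjusted p = 0.116) and 0.76 without C1q replicate 3.

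At the membrane, the 8 tested Frizzled genes had 4 positive and 4 negative log2 fold changes between -0.25 and 0.20. Fzd1, a receptor of that family, had 0.20 ± 0.17. Among 7 other Wnt receptors Reck, a membrane-anchored partner of the receptor Adgra2, had -0.32 ± 0.18. Its value was -0.20 without either C1q replicate 1 or saline replicate 3, and -0.44 without saline replicate 2. Of the R-spondin axis 4 genes were tested, with a median of 0.074 that ran from -0.27 without C1q replicate 2 to 0.25 without saline replicate 3. Lgr6, an R-spondin receptor, had -0.27 ± 0.34, with -0.45 without saline replicate 2 and -0.10 without C1q replicate 3. R-spondins are secreted proteins that raise the number of Frizzled receptors, and none of the 4 R-spondin genes passed the filter on low counts.

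In the cytosol, 15 genes of the relay and the destruction complex had 6 positive and 9 negative log2 fold changes, with a median of -0.049, and of 0.026 without saline replicate 3. Dvl1, a Dishevelled that links Frizzled to axin, had 22.1, 16.2 and 18.5 CPM in C1q libraries and 25.7, 23.5 and 26.5 CPM in saline libraries (log2 fold change -0.41 ± 0.20, edgeR unadjusted p = 0.0645, adjusted p = 0.609). In the nucleus, 14 partners of the TCF/LEF factors had 5 positive and 9 negative values, with a median of -0.14, which was -0.031 without C1q replicate 1 and -0.23 without C1q replicate 2. Tle2, a co-repressor that binds TCF/LEF factors, had 12.4, 9.52 and 12.6 CPM in C1q libraries and 17.4, 20.6 and 20.2 CPM in saline libraries. It was lower in each C1q library, with a log2 fold change of -0.75 ± 0.23 (edgeR unadjusted p = 0.00722, adjusted p = 0.512).

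Of 7 other genes known as Wnt targets in some tissues 4 were tested, with 3 positive and 1 negative log2 fold changes, from -0.58 to 0.79 with a median of 0.21 (0.34 without saline replicate 3), and 0 passed. Myc, a growth-promoting transcription factor that many signals induce, had 32.9, 26.8 and 36.6 CPM in C1q libraries and 22.5, 16.6 and 16.1 CPM in saline libraries. All C1q libraries were above the saline libraries, and the log2 fold change was 0.79 ± 0.21 (edgeR unadjusted p = 0.00331, adjusted p = 0.410). Cd44, a hyaluronan receptor, had 277, 243 and 266 CPM in C1q libraries and 212, 202 and 219 CPM in saline libraries, a log2 fold change of 0.31 ± 0.14 (edgeR unadjusted p = 0.0470, adjusted p = 0.606).

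**Figure D4:**
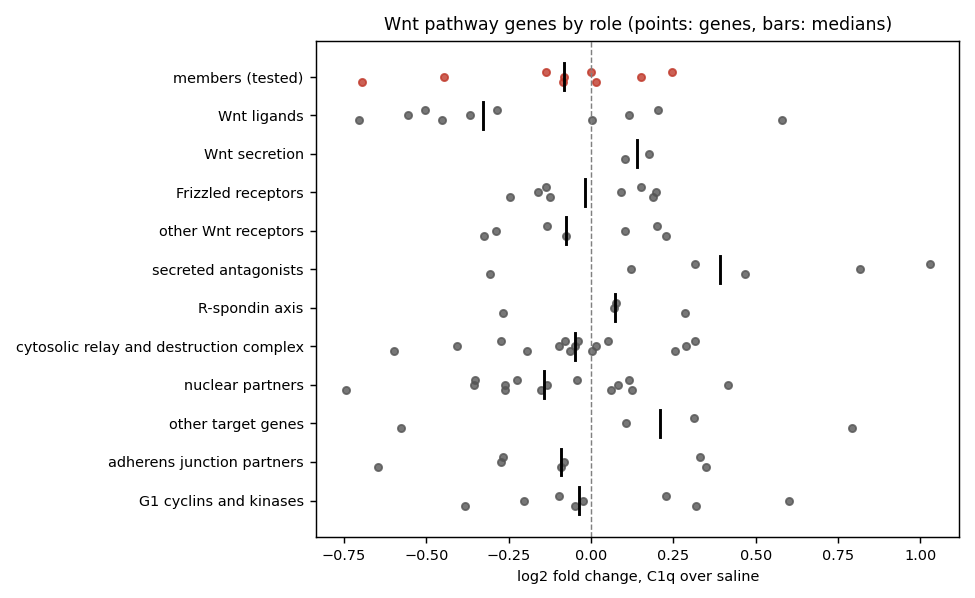
Log2 fold changes of C1q over saline for the 9 tested genes (red) and for the tested genes of 11 further lists of the pathway (grey points), with the median of each as a black bar. The medians of the lists run from -0.33 for the Wnt ligands to 0.39 for the secreted antagonists.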

How the data were processed

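The table deposited by the authors holds counts, whole numbers per gene symbol and library without normalization. Reads were handled with Bowtie2 2.4.2 and cutadapt 2.1.0 on GRCm38, per the submitters' processing notes. Per the labels' protocols, lungs were digested with Liberase and DNase, cells were taken from the middle layer of a Percoll gradient, and their poly(A) RNA was captured on beads. The counting step, with its use of strand or molecular identifiers, is in none of the labels, and so not given in the sources used here. Counts at 5′ ends do not scale with transcript length in a known way, so ratios between genes were compared only from library to library.

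Libraries were grouped by treatment label and numbered in order of deposition. After filterByExpr and TMM scaling, genes were tested in edgeR 4.0.16 (glmQLFit, glmQLFTest, two-sided, 13473 genes, Benjamini-Hochberg, threshold 0.05). SE and 95% intervals come from the fold change and F statistic. The test was checked on simulated data. CPM use TMM-scaled library sizes. Ratios add 0.5 to each count. All 15 library pairs differed by more than counting noise (chi-square per degree of freedom of at least 4.74). The largest value, 14.6, was between saline replicates 2 and 3, and between a C1q and a saline library it was at most 12.9. Alternatives were other scalings and filters, DESeq2 1.42.0, limma-voom (limma 3.58.1) and leaving out each library. The 10 genes and all lists were chosen with earlier results of these data known. All 10 genes are named, and of each list the genes at a mean of at least 5 CPM with an unadjusted p under 0.05 (at most 4), or else the gene with the smallest p. The fibroblast markers, the chains of CD3, Cd2, Ccr7, Il7r and LTO1 were named after their values were seen. Positions are from GENCODE M21 on GRCm38.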

Additional observations from a re-analysis of the deposited data

How the results depend on the processing

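Of the 9 genes tested under 7 alternatives and the 10 tested, with Wif1, under the other 6, 0 passed the adjusted threshold, and Tcf7 was the single one at an unadjusted p under 0.05 in each of them, with adjusted p of 0.209 to 0.854. Over all genes the number called was 4, against 32 with DESeq2, 373 with no filter on low counts and 0 to 10 with 1 library left out. With no filter 2 genes of the pathway lists were called, Sfrp1 (adjusted p = 0.00154) and Myc (adjusted p = 0.0346), and 0 under the other alternatives. Tcf7, Lef1, Ctnnb1 and Ccnd1 kept their direction in all 13 alternatives. Values near 0 turned for 5 genes. Nkd1 was at 0.0021 with limma-voom, 0.031 with no filter, 0.011 with a filter of 2 CPM in 3 libraries (which kept 15036 genes) and -0.065 to 0.095 with 1 library left out. Lrp6 was at -0.028 by library size only and at -0.081 to 0.11 with 1 library left out, Lrp5 at -0.33 to 0.039, Tcf7l2 at -0.31 to 0.026 and Axin2 at -0.22 to 0.077. The Lrp5 to Lrp6 difference ran from -0.30 to 0.031. The medians of the 11 lists changed sign in 16 of 143 values. The causes were not tested. No paired analysis was possible because the labels give the groups no shared replicate numbers. At 3 to 13 counts a library, Wif1 carries a wide counting error.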
